A study of Rattus norvegicus with 24 samples.

Results

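The transcripts of 10 neuronal cytoskeleton and growth genes were examined in the developing hippocampus and neocortex of the rat. They were taken from the table by symbol, namely Dcx, Tubb3, Map2, Mapt, Stmn2, Gap43, Nefl, Nefm, Ina and Rbfox3, and all 10 were found among its 17420 genes. The samples were 24 pups of Sprague-Dawley rats at embryonic day 18, with 6 pups in each of 4 maternal treatment groups and 3 pups from each of 2 litters in every group. Saline pups came from dams given saline on gestational day 17, and control dams ate an isocaloric diet with 20.3% protein. MAM pups came from dams given methylazoxymethanol acetate, a DNA-alkylating agent that interrupts cell division, at 22 mg/kg on gestational day 17. Poly I:C pups came from dams given a synthetic double-stranded RNA that mimics viral infection, at 7.5 mg/kg on gestational day 17. Low Protein pups came from dams that ate a diet with 6.1% protein from gestational day 11 to 18. Both drugs were given by intraperitoneal injection 18 hours before tissue collection. The diet given to dams in the MAM and Poly I:C groups, and any injection of the dams on the low protein diet, are not given in the sources used here. The dam received the treatment and the pup was sequenced, so the p-values measure the spread between pups of only 2 litters in each group.

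A young neuron leaves the cell cycle, migrates and extends an axon and dendrites on a scaffold of microtubules and intermediate filaments. Tubulins form the microtubules, proteins such as doublecortin, MAP2, tau and the stathmins stabilise or dismantle them, and neurofilament proteins fill the growing axon. In the late embryonic cortex, where progenitors and new neurons lie side by side, the transcripts of these proteins are widely used as marks of neurons against dividing cells.

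The sequences before the annotated start sites of 3 of the genes are shown as examples that differ in G and C content. RefSeq sequences of the GRCr8 build were found by symbol for 4 of the 10 genes, the fourth being Map2. Each covers the 250 bases before the start, from 5′ to 3′ on the strand of the gene. Dcx lies at chrX:112304162-112304411 on the minus strand, Tubb3 at chr19:68365437-68365686 on the plus strand and Ina at chr1:255837879-255838128 on the plus strand. The deposited values were made on another build, rn6, and no value was read from these windows. Capitals mark every match, on either strand, to the letters CANNTG of an E-box, the letters CCAAT of a CCAAT box, the letters GGGCGG of a GC box or the letters TATAAA of a TATA box.
Dcx: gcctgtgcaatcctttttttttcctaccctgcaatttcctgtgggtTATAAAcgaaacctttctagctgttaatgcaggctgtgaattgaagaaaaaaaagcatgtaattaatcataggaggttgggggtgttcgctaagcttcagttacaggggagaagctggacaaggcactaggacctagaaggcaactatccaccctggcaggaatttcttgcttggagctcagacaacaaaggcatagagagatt
Tubb3: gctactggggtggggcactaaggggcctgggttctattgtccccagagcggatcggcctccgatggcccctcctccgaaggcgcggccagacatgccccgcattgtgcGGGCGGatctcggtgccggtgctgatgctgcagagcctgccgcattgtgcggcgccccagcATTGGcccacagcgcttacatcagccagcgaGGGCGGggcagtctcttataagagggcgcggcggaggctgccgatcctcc
Ina: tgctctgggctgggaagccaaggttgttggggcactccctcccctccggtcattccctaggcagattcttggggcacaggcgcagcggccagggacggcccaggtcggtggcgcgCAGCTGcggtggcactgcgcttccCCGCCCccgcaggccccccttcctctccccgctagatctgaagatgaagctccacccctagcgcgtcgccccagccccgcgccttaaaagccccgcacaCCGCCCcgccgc
The Tubb3 and Ina windows held 68% and 70.8% G and C, against a median of 51.2% over 33469 such windows of the rat, and each held 2 matches to GGGCGG. The Dcx window held 44% and a single match to TATAAA. The Map2 window, which is not shown, held 32%, the lowest of the 4, and a single match to CANNTG. Of all windows, 65.5% held CANNTG, 34.0% CCAAT, 30.5% GGGCGG and 12.9% TATAAA. No match overlapped another. A match describes the letters only.

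Values were TPM as deposited, which the paper describes as counts normalized by sample. They summed to 70350.1 in every pup, so 1 TPM here is 1 part in 70350.1 of the total of a pup. Whether they were scaled for gene length, and by which lengths, is not given in the sources used here. They were therefore compared between pups for the same gene only. Fold changes against saline are log2 TPM differences, listed in the order Low Protein, MAM, Poly I:C, with the standard error (SE) of limma, a linear model fitted over all genes. Of the 10 genes, 9 were among the 5086 genes tested, those with a mean above 1 TPM in every group. Rbfox3 lay below this limit and its fold changes come from a wider fit of 14215 genes. The relative number of reads per pup, estimated from genes with few reads, differed up to 2.71-fold and had group medians from 0.830 (Poly I:C) to 1.17 (Low Protein). Markers of cortical projection neurons were present in every pup, with a summed level of 127 to 282 TPM over 8 genes. Markers of the ganglionic eminence, choroid plexus and blood were also detected in every pup. Each sum adds different genes and so follows mainly those with the highest values. In saline pups, Ttr had a mean of 140 TPM where the choroid plexus sum had 142 TPM. Cldn5 had 52.3 TPM where the endothelial sum had 53.7 TPM, and Pcna 18.9 TPM where the dividing cell sum had 31.3 TPM. Saline pup 2.1 (litter 2, pup 1) stood apart, with the lowest projection neuron sum of all pups, 127 TPM against 206 to 256 TPM in the other saline pups, and a ganglionic eminence sum of 95.7 TPM against 49.6 to 64.3 TPM.

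No gene of the set passed an adjusted p of 0.05 by limma in any group against saline, while nearly all had lower means than in saline. A log2 fold change below 0 was found for 10 of 10 genes in Low Protein pups, 9 in MAM pups and 9 in Poly I:C pups. Over all genes tested, 52.2%, 67.9% and 46.8% were below 0 in the same comparisons. The median log2 fold change of the 10 genes was -0.15, -0.19 and -0.16, against -0.0054, -0.046 and 0.0081 over all genes tested. The 3 comparisons share the same saline pups, so their common direction is not repeated evidence. The genes also varied together: with group means removed, the Pearson r over the 24 pups had a median of 0.38 over 45 pairs of genes. It was above 0 in 40 pairs, so counts of these genes, here and between litters, are not counts of independent results. In a bulk tissue sample, fewer neurons and less RNA per neuron cannot be told apart.

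At an unadjusted p under 0.05 by limma, 0 of the 9 genes tested passed in Low Protein, where 8.24% of all genes passed in either direction. In MAM, 3 of 9 passed, namely Nefl, Nefm and Ina, all lower, where 8.18% of all genes passed as lower and 11.2% in either direction. In Poly I:C, Mapt alone passed, as lower, where 5.7% of all genes passed as lower and 9.95% in either direction. With a further limit of 0.6 on the size of the log2 fold change in either direction, 0 of 9 genes passed in Low Protein or Poly I:C by limma, where 0% and 0.059% of all genes did, and the largest absolute value among the 9 was 0.38 and 0.21. The lowest adjusted p by limma among the 9 genes was 0.599, 0.416 and 0.440 in the 3 comparisons, and 0%, 0.0197% and 0% of all genes passed an adjusted p of 0.05. Tested over the 4 groups together by the limma F test, 0 of 9 genes passed at an unadjusted p under 0.05, where 16.4% of all genes did, and the lowest adjusted p was 0.379, for Ina, where 0.413% of all genes passed 0.05 after adjustment.

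**Figure D1:**
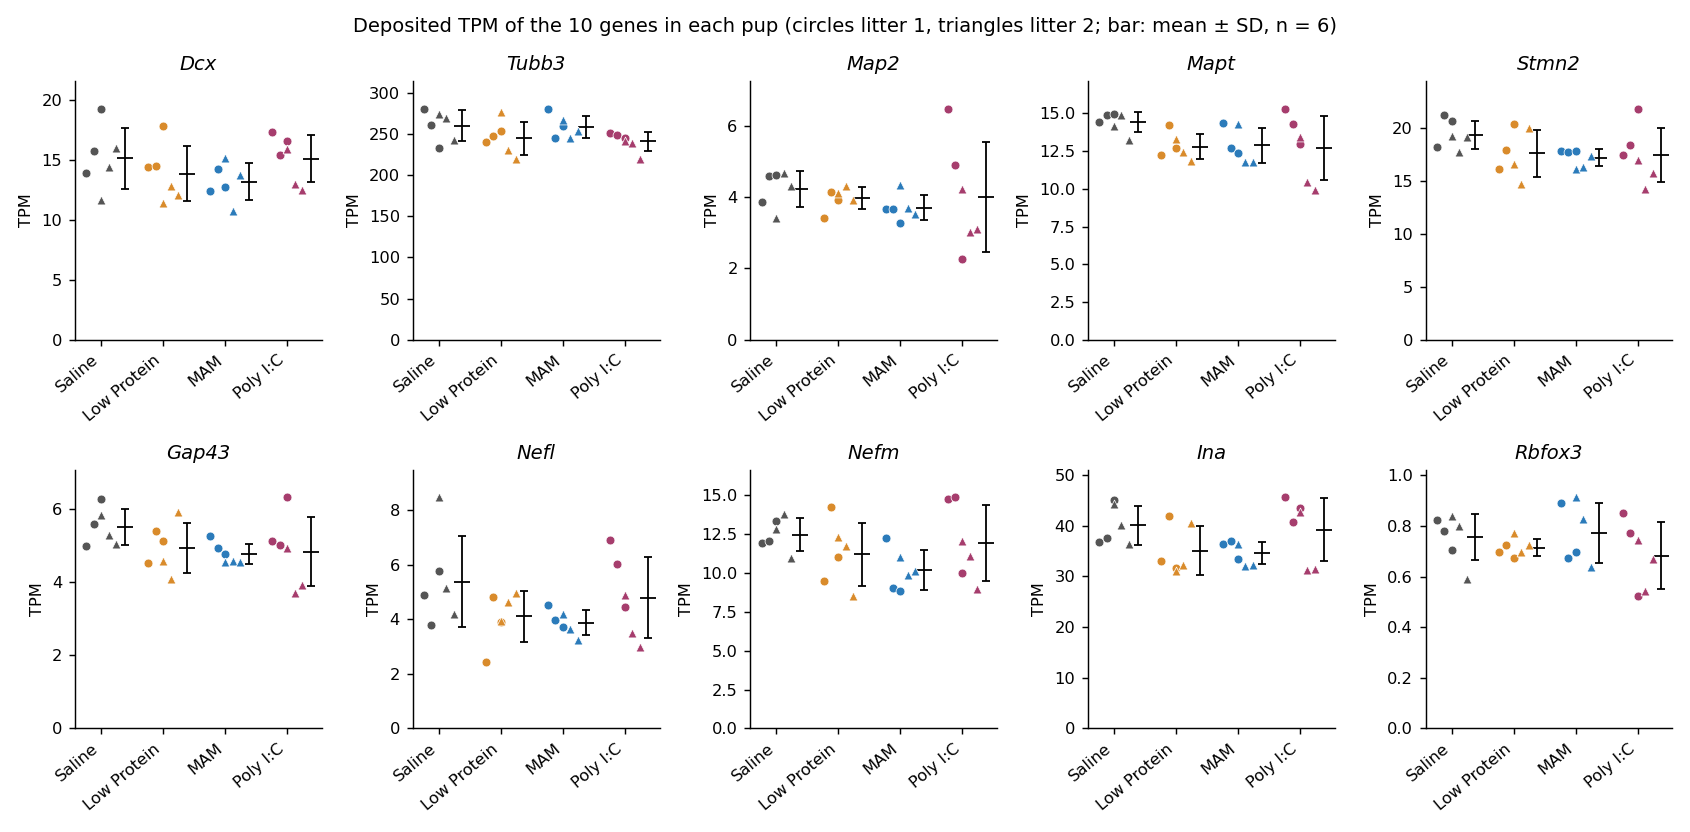
TPM of each of the 10 genes (one panel per gene, y axis from 0) in the 6 pups of the saline, Low Protein, MAM and Poly I:C groups; circles are litter 1, triangles litter 2, and the bar to the right of each group is the mean with its SD. The groups overlap in every panel, and the Poly I:C pups are the most spread for Map2, from 2.28 to 6.49 TPM.

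Among the microtubule genes, Tubb3 encodes the beta tubulin used by neurons. It had its lowest, median and highest values at 233, 265 and 281 TPM in saline pups, 219, 244 and 277 TPM in Low Protein pups, 245, 257 and 281 TPM in MAM and 219, 243 and 252 TPM in Poly I:C. All 6 Poly I:C pups lay below the saline mean, but only 1 lay below every saline pup, and the MAM and saline ranges nearly coincided. Against saline, its log2 fold changes were -0.09, -0.0088 and -0.11 (SE 0.0577 in each, limma), and the direction in MAM turned to 0.056 when samples were scaled by the median of ratios. The exact permutation p, two-sided and over every split of 6 against 6 pups, was 0.186, 0.874 and 0.0671, where the smallest possible is 0.00216.

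Dcx encodes doublecortin, which binds microtubules in migrating young neurons. Its lowest, median and highest values were 11.6, 15.1 and 19.3 TPM in saline pups, 11.4, 13.6 and 17.8 TPM in Low Protein pups, 10.8, 13.2 and 15.2 TPM in MAM and 12.5, 15.7 and 17.3 TPM in Poly I:C. The saline pups spanned almost the whole range of the treated pups, with 1 Low Protein, 1 MAM and 0 Poly I:C pups below every saline pup. Log2 fold changes were -0.13, -0.19 and 0.0040 (SE 0.116, limma), with exact permutation p of 0.368, 0.152 and 0.978.

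Map2 encodes a protein that stabilises dendritic microtubules. It ranged from 3.41 to 4.67 TPM in saline (median 4.45), from 3.41 to 4.305 TPM in Low Protein (median 4.03), from 3.29 to 4.35 TPM in MAM (median 3.67) and from 2.28 to 6.49 TPM in Poly I:C (median 3.67). The Poly I:C pups thus spread to both sides of saline, with 3 pups below every saline pup and 2 above, and their coefficient of variation was 38.3% against 11.9% in saline. Map2 had log2 fold changes of -0.09, -0.19 and -0.16 (SE 0.162, limma), and none passed the threshold, with exact permutation p of 0.338, 0.0693 and 0.513.

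Mapt encodes tau, the microtubule protein of axons, and gave the tightest saline values of the set. Its lowest, median and highest values were 13.2, 14.7 and 15.0 TPM in saline pups, 11.9, 12.6 and 14.3 TPM in Low Protein pups, 11.8, 12.5 and 14.3 TPM in MAM and 9.93, 13.2 and 15.3 TPM in Poly I:C. All 6 Low Protein and all 6 MAM pups lay below the saline mean, and 4 pups of either group lay below every saline pup. In Poly I:C, 3 pups lay below every saline pup and 1 lay above. Its log2 fold changes were -0.17, -0.17 and -0.20 (SE 0.0856), with unadjusted limma p of 0.0548, 0.0639 and 0.0306 and exact permutation p of 0.0108, 0.0238 and 0.102. Poly I:C alone thus passed by limma, which shares the spread of all groups, and the other two groups passed by the exact test.

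Stmn2 encodes a stathmin of the growth cone that dismantles microtubules. It had lowest, median and highest values of 17.7, 19.1 and 21.2 TPM in saline pups, 14.7, 17.3 and 20.3 TPM in Low Protein pups, 16.1, 17.5 and 17.9 TPM in MAM and 14.3, 17.2 and 21.8 TPM in Poly I:C. The 6 MAM pups were close together and all below the saline mean, with 4 below every saline pup. Stmn2 had log2 fold changes of -0.14, -0.17 and -0.16 (SE 0.0847), with unadjusted limma p of 0.105, 0.0581 and 0.0717 and exact permutation p of 0.123, 0.00649 and 0.123.

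Gap43 encodes a membrane protein of the growth cone that is abundant while axons extend. Its values were 5.00, 5.45 and 6.28 TPM (lowest, median, highest) in saline, 4.08, 4.85 and 5.94 TPM in Low Protein, 4.55, 4.68 and 5.26 TPM in MAM and 3.69, 4.97 and 6.32 TPM in Poly I:C. In MAM, 5 of 6 pups lay below every saline pup, whereas the Poly I:C pups lay on both sides of the saline range. Log2 fold changes of -0.16, -0.20 and -0.21 resulted (SE 0.104), with unadjusted limma p of 0.128, 0.0611 and 0.0569 and exact permutation p of 0.119, 0.00866 and 0.143.

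The intermediate filament genes held the 3 calls in MAM. Nefl, the light neurofilament chain, had lowest, median and highest values of 3.80, 5.01 and 8.46 TPM in saline pups, 2.43, 4.27 and 4.95 TPM in Low Protein pups, 3.24, 3.84 and 4.52 TPM in MAM and 2.97, 4.65 and 6.89 TPM in Poly I:C. All 6 MAM and all 6 Low Protein pups lay below the saline mean, which was raised by Saline pup 2.1 at 8.46 TPM. Its log2 fold changes against saline were -0.38, -0.43 and -0.18 (SE 0.198), with unadjusted limma p of 0.0689, 0.0407 and 0.381 and exact permutation p of 0.130, 0.0238 and 0.485. Without Saline pup 2.1 the values were -0.24, -0.29 and -0.036, and the MAM value no longer passed the threshold.

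Nefm, the medium neurofilament chain, ranged from 10.9 to 13.8 TPM in saline (median 12.4), 8.54 to 14.2 TPM in Low Protein (median 11.4), 8.84 to 12.2 TPM in MAM (median 10.0) and 8.94 to 14.9 TPM in Poly I:C (median 11.5). In MAM, 4 pups lay below every saline pup and all 6 below the saline mean. Nefm had log2 fold changes of -0.17, -0.29 and -0.08 (SE 0.123), with unadjusted limma p of 0.180, 0.0250 and 0.498 and exact permutation p of 0.199, 0.0152 and 0.537.

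Ina encodes alpha-internexin, an intermediate filament protein that appears early in developing neurons. Its lowest, median and highest values were 36.5, 38.8 and 45.2 TPM in saline pups, 31.1, 32.7 and 41.9 TPM in Low Protein pups, 32.1, 34.9 and 36.9 TPM in MAM and 31.3, 41.8 and 45.6 TPM in Poly I:C. In MAM, 5 of 6 pups lay below every saline pup, and in Low Protein 4 did. For Ina, the log2 fold changes were -0.20, -0.21 and -0.04 (SE 0.0969), with unadjusted limma p of 0.0527, 0.0413 and 0.673 and exact permutation p of 0.0714, 0.0108 and 0.719.

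Rbfox3 encodes NeuN, a nuclear splicing regulator used as a mark of neurons after their last division, and is no cytoskeletal gene. It was low, with lowest, median and highest values of 0.592, 0.789 and 0.840 TPM in saline pups, 0.675, 0.71 and 0.772 TPM in Low Protein pups, 0.640, 0.763 and 0.913 TPM in MAM and 0.522, 0.706 and 0.849 TPM in Poly I:C. The groups overlapped throughout, and Rbfox3 was the one gene of the set whose MAM mean lay above saline. Rbfox3 had log2 fold changes of -0.07, 0.03 and -0.16 (SE 0.118, limma over 14215 genes), and the exact permutation p was 0.407, 0.823 and 0.271.

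**Figure D2:**
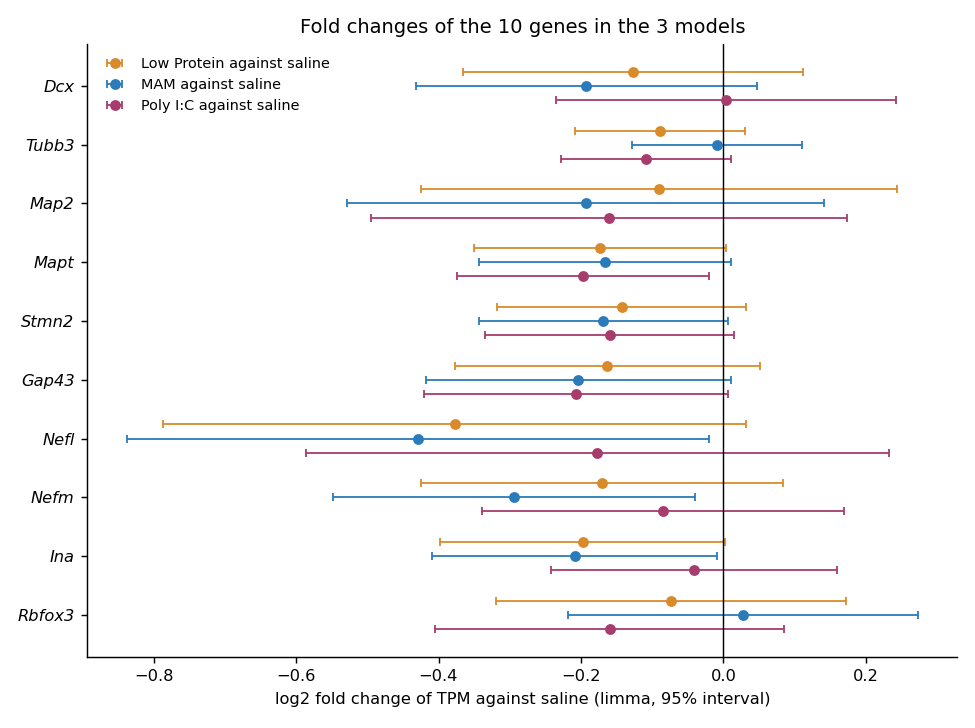
Log2 fold change of TPM against saline (x axis) with the 95% interval of limma for each of the 10 genes (y axis) in the 3 treated groups, all against the same 6 saline pups. Most points lie left of 0, and the intervals that exclude 0 are those of Nefl, Nefm and Ina in MAM and of Mapt in Poly I:C.

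By the exact permutation test, 6 of the 10 genes had a p under 0.05 in MAM, namely Stmn2, Gap43, Ina, Nefm, Mapt and Nefl, where 10.4% of all genes tested passed as lower and 14% in either direction. Mapt alone did so in Low Protein, where 6.59% of all genes passed as lower and 9.95% passed in either direction. In Poly I:C, 0 genes did, where 4.07% passed as lower and 7.83% in either direction. These exact tests use only the 12 pups compared, whereas the limma fit shares the spread of all 4 groups, and they were not adjusted over genes. They were run on the deposited scale only, on which 67.9% of all genes were below 0 in MAM. Other scalings lowered the MAM count by limma, as given below. In all 30 comparisons of a gene and a group, the treated and saline pups overlapped. In the lower direction alone, 0.531%, 0.511% and 0.354% of all genes had every treated pup below every saline pup. The share of all genes in the higher direction is not given here.

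The 3 treated groups were compared with each other for the same genes. By limma, 0 of the 9 genes tested passed an unadjusted p under 0.05 between MAM and Low Protein, between Poly I:C and Low Protein or between Poly I:C and MAM, where 11%, 5.31% and 23.1% of all genes did. By the F test among the 3 treated groups, 0 of 9 genes passed, where 17.2% of all genes did. The widest gap in the filament genes was Nefl between Poly I:C and MAM, at a log2 difference of 0.25 with a 95% interval from -0.16 to 0.66. The corresponding difference was 0.21 for Nefm (interval -0.04 to 0.46) and 0.17 for Ina (interval -0.03 to 0.37). These intervals include 0, and they also include differences as large as those from saline.

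Each pup was then described by its mean log2 deviation from the saline mean over the 10 genes. The deviation ranged from -0.12 to 0.10 in saline pups, from -0.31 to -0.017 in Low Protein pups, from -0.26 to -0.06 in MAM pups and from -0.40 to 0.16 in Poly I:C pups. All 6 Low Protein and all 6 MAM pups were below 0, and 4 of 6 Poly I:C pups were. The group means were -0.16 ± 0.0978 (SD, n = 6) in Low Protein pups, -0.18 ± 0.0907 in MAM pups and -0.13 ± 0.231 in Poly I:C, against a saline SD of 0.0781. The Poly I:C pups were thus the most spread of the 4 groups.

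**Figure D3:**
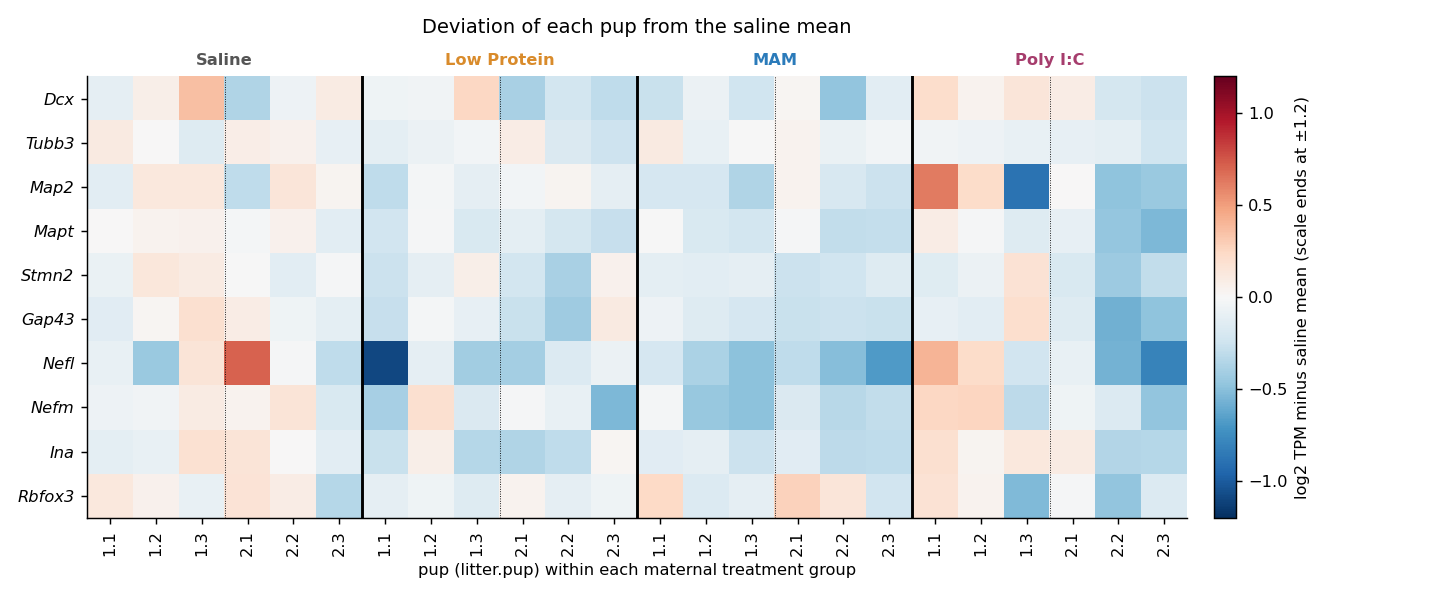
Deviation of log2 TPM from the saline mean (colour, red above and blue below) for the 10 genes (rows) in the 24 pups (columns, numbered as litter and pup, with a dotted line between the litters of a group). Poly I:C pups 2.2 and 2.3 are blue in all 10 rows, with mean deviations of -0.38 and -0.40, and Poly I:C pup 1.1 is mostly red, at 0.16.

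The Poly I:C pups differed between litters. The mean deviation was 0.021 in litter 1 and -0.28 in litter 2, and all 10 genes had lower means in litter 2, where 57.1% of all genes did. By limma with the 8 litters as the factor, 5 of 9 genes were lower in litter 2 at an unadjusted p under 0.05, where 10.2% of all genes were lower and 15.4% differed in either direction. The 5 were Mapt (log2 difference -0.34, SE 0.105), Gap43 (-0.40, SE 0.129), Stmn2 (-0.29, SE 0.107), Nefl (-0.62, SE 0.255) and Ina (-0.31, SE 0.131). None passed after adjustment over all genes, with adjusted p from 0.144 (Mapt) to 0.239 (Ina) by limma, where 0% of all genes did. Within litter 2, pups 2.2 and 2.3 were the low ones, with Mapt at 10.4 and 9.93 TPM against 13.4 TPM in pup 2.1 and 13.0 to 15.3 TPM in litter 1. Gap43 was likewise at 3.69 and 3.93 TPM in those pups against 4.93 TPM in pup 2.1.

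In the other groups, a single gene differed between litters. Of the 36 comparisons of a tested gene between the 2 litters of a group, 6 passed an unadjusted p under 0.05 by limma, where 8.12% did over all genes and groups. Beside the 5 in Poly I:C, the sixth was Dcx in Low Protein, with a log2 difference of -0.36 between litter 2 and litter 1 (adjusted p = 0.358 by limma), where 11.1% of all genes were lower and 12.7% differed in either direction. In saline and MAM, 0 of the 9 genes passed, where 3.09% and 1.24% of all genes did. Whether the litter difference itself differs between groups was not tested.

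**Figure D4:**
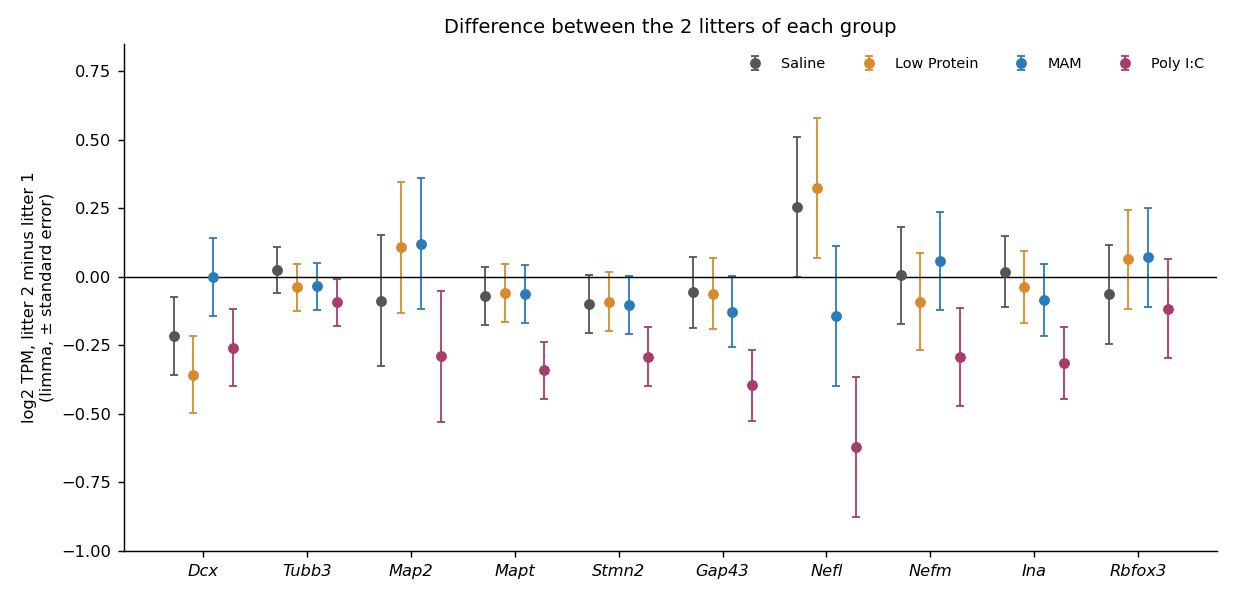
Log2 TPM of litter 2 minus litter 1 (y axis, with the standard error of limma) for the 10 genes (x axis) in each group of 3 pups against 3. All 10 Poly I:C points lie below 0, down to -0.62 for Nefl, while those of the other groups lie on both sides.

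The Poly I:C result against saline therefore depended on which litter was used. Without Poly I:C litter 1, 6 of 9 genes passed an unadjusted p under 0.05 by limma, where 19% of all genes passed in either direction and 12.1% as lower. Mapt (log2 fold change -0.37, adjusted p = 0.0239) and Gap43 (-0.40, adjusted p = 0.0345) passed by limma after adjustment over all genes, as did 4.31% of all genes. This fit keeps a single Poly I:C litter, so treatment and litter cannot be told apart in it. Its p-values hold no spread between Poly I:C litters. The litter kept, litter 2, was already seen to be the lower, with a mean deviation of -0.28 against 0.021 in litter 1. Without Poly I:C litter 2, 0 of 9 genes passed at an unadjusted p under 0.05 by limma, where 4.48% of all genes passed, with Mapt at -0.026 and Gap43 at -0.0097, and the median over the 10 genes was -0.012. Leaving out Poly I:C pup 2.2 or 2.3, or Saline pup 1.2 or 2.2, also removed the Mapt call.

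Markers of other cell types moved with the litter in Poly I:C. The summed level of 7 genes of dividing cells was 37.3 to 42.2 TPM in litter 2 and 32.7 to 33.3 TPM in litter 1, and 4 of the 6 tested were higher in litter 2 at an unadjusted limma p under 0.05, with 0 lower, where 5.17% of all genes were higher. The summed level of choroid plexus genes was 192 to 244 TPM in litter 2 and 32.5 to 151 TPM in litter 1. That of endothelial genes was 54.1 to 69.4 TPM against 41.1 to 49.3 TPM, while the projection neuron sums overlapped, at 224 to 282 TPM and 204.6 to 248 TPM. The astrocyte and oligodendrocyte list moved the other way, with sums of 13.1 to 21.2 TPM in litter 2 and 21.4 to 24.0 TPM in litter 1. Its only 2 tested genes, Olig1 and Olig2, were both lower in litter 2, and no astrocyte gene was tested. In saline pups, Olig1 had a mean of 14.1 TPM where this sum had 21.4 TPM. Genes of the ganglionic eminences and their interneurons had 49.0 to 60.7 TPM against 54.5 to 68.4 TPM, with 2 of 6 lower, and striatal genes had 6.96 to 7.44 TPM against 8.06 to 9.02 TPM, with 0 of 3 passing. Intermediate progenitor genes were at 14.6 to 18.2 TPM against 10.5 to 14.6 TPM, with 2 of 2 higher in litter 2, and of 9 radial glia genes 3 were higher and 1 lower. The single choroid plexus gene and the single endothelial gene tested were higher in litter 2. The sums of microglial genes did not overlap, at 11.8 to 12.9 TPM against 8.84 to 11.2 TPM, although 0 of 3 passed, and 0 of 6 projection neuron, 0 of 3 meningeal and 0 of 4 blood genes passed. The part of these markers in the litter difference of Mapt, Gap43, Stmn2, Nefl and Ina was not tested.

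The litter contrast did not cover every Poly I:C pup in the same way. Poly I:C pup 1.3 had the lowest Map2 (2.28 TPM) and Rbfox3 (0.522 TPM) of all 24 pups but the highest Stmn2 (21.8 TPM) and Gap43 (6.32 TPM). Poly I:C pup 1.1 had the highest Map2 (6.49 TPM), Mapt (15.3 TPM) and Ina (45.6 TPM) of all 24 pups. In pup 1.3, Stmn2, Gap43, Dcx and Ina lay above the saline mean. Map2 lay below it, as did the axonal genes Mapt (log2 deviation -0.15), Nefl (-0.23) and Nefm (-0.32), with Tubb3 and Rbfox3. Pup 1.3 also had the lowest choroid plexus sum of the Poly I:C pups, 32.5 TPM, and the part of this in its Map2 and Stmn2 values was not tested.

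Markers also moved with the saline comparisons. Of 6 ganglionic eminence and interneuron genes tested, 5 were lower in Low Protein pups, 3 in MAM pups and 0 in Poly I:C pups at an unadjusted limma p under 0.05, where 4.58%, 8.18% and 5.7% of all genes were lower. The summed level of this list was 49.6 to 95.7 TPM in saline pups, 42.8 to 59.2 TPM in Low Protein pups, 46.0 to 62.3 TPM in MAM and 49.0 to 68.4 TPM in Poly I:C, with 95.7 TPM in Saline pup 2.1. Of 6 genes of dividing cells tested, 0 were higher in Low Protein pups, 2 in MAM pups and 1 in Poly I:C pups, and of 9 radial glia genes 1, 2 and 3 were higher, with 0 lower in either list, where 3.66%, 3.07% and 4.25% of all genes were higher. The summed level of the dividing cell list was 29.4 to 33.5 TPM in saline pups, 30.3 to 37.9 TPM in Low Protein pups, 28.3 to 38.2 TPM in MAM and 32.7 to 42.2 TPM in Poly I:C. Their part in the lower means of the 10 genes was not tested. Of the other 10 cell type lists, those with a gene past the threshold were intermediate progenitors (1 of 2 higher in Poly I:C), projection neurons (1 of 6 higher and 1 lower in Low Protein), the astrocyte and oligodendrocyte list (1 of 2 lower in Low Protein), microglia (2 of 3 higher in MAM) and blood (1 of 4 higher in Low Protein). The projection neuron sum had a mean of 216 TPM for saline, against 244 TPM (Low Protein), 228 TPM (MAM) and 236 TPM (Poly I:C). Saline pup 2.1, at 127 TPM, lowered the saline mean. The 6 tested genes of that list had median log2 fold changes of 0.053, 0.092 and 0.026, with 3, 2 and 3 genes below 0. The part of projection neurons in the means of the 10 genes was not tested.

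The remaining genes of the same machinery were taken from lists by role, and counts are of genes past an unadjusted p under 0.05 by limma. Of all genes tested, 4.58% passed as lower and 3.66% as higher in Low Protein pups. These shares were 8.18% and 3.07% for MAM pups and 5.7% and 4.25% for Poly I:C pups. In lists this short, a count of 0 or 1 is too small to be set against them. Of 12 tubulin genes, which encode the subunits of microtubules, 2 were lower in Low Protein, 2 were higher in MAM and 4 were lower in Poly I:C. Tubb2b, a beta tubulin of young neurons, had 1685 TPM in saline and 1519 TPM in Poly I:C (log2 fold change -0.15, adjusted p = 0.304 by limma). Tubb2a was lower in both Low Protein (-0.22) and Poly I:C (-0.28), as was Tuba4a (-0.38 and -0.45), and Tubb4a was lower in Poly I:C (-0.20). In MAM, Tuba1c (0.39) and Tubb4b (0.10) were higher. The tubulin family, whose members share sequence, may split reads between near-identical genes in the counting of the authors, so these values are uncertain.

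Of 16 further genes tested that bind or organise microtubules, 5 were lower in MAM, 2 in Poly I:C and 0 in Low Protein, with 0 higher. The median log2 fold change of this list was -0.13, -0.17 and -0.09, against -0.15, -0.19 and -0.16 for the 10 genes. Camsap2, which caps microtubule minus ends, was lower in MAM (-0.30), as was Pafah1b1 (LIS1), which acts with dynein in neuronal migration (-0.24). Dclk1, the kinase relative of doublecortin, was lower in MAM (-0.26), while Dcx itself did not pass there. Stmn4 was lower in MAM (-0.24) and Poly I:C (-0.29), and Stmn3 in Poly I:C (-0.17). Stmn1, the stathmin also used by progenitors, had log2 fold changes of -0.06, -0.13 and -0.10 that did not pass. Map1b, a microtubule protein of growing axons, had -0.26, -0.28 and -0.10, and Map1a -0.30, -0.30 and -0.24, without passing. In the Poly I:C litters, 6 of the 16 were lower in litter 2 and 0 higher, where 10.2% of all genes were lower and 5.17% higher.

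The filament relatives Nefh and Prph lay below the level limit and were read from the wider fit, in which 6.98%, 9.57% and 8.93% of genes passed in the 3 comparisons. Nefh, the heavy neurofilament chain, had means of 0.262 ± 0.0398 TPM in saline pups, 0.191 ± 0.0532 TPM in Low Protein pups, 0.162 ± 0.0465 TPM in MAM and 0.254 ± 0.0878 TPM in Poly I:C (SD, n = 6). It was lower in Low Protein (log2 fold change -0.49) and MAM (-0.72), with -0.11 in Poly I:C, and the lowest adjusted p by limma was 0.506. Prph, which encodes peripherin, had log2 fold changes of -0.19, -0.31 and -0.32, of which the latter pair passed. Rbfox1, the relative of Rbfox3, was lower in each group, with -0.25, -0.22 and -0.24 at means of 0.136 to 0.162 TPM, and Rbfox2 did not pass in any group.

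Of 5 collapsin response mediator genes, which link guidance signals to microtubules, 2 were lower in Low Protein pups, 1 in MAM pups and 2 in Poly I:C pups. Dpysl4 was lower in Poly I:C (-0.27) and Low Protein (-0.22), and had -0.05 in MAM. Crmp1 was lower in Low Protein (-0.12) and Poly I:C (-0.13), and Dpysl2 in MAM (-0.18). Of 11 motor subunits of axonal transport, 0, 3 and 2 were lower in the 3 comparisons, with Klc1, a kinesin light chain, at -0.12, -0.16 and -0.15 and lower in MAM and Poly I:C. Of 7 kinases and activators that act on these proteins, 1, 1 and 2 were lower, with Cdk5r2, an activator of the kinase of tau and doublecortin, at -0.35, -0.34 and -0.37 and lower in Low Protein and Poly I:C.

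The remaining lists held few or no lower calls. Of 9 growth cone and actin genes and 4 axonal adhesion genes tested, 0 passed in any group by limma at an unadjusted p under 0.05, with medians of -0.06, -0.00012 and -0.04 for the former. Of 2 neuronal RNA-binding genes tested, Celf3 was lower in Low Protein (-0.13) and Poly I:C (-0.15), and Elavl3 did not pass. Of 6 transcription factors and corepressors of neuronal differentiation tested, 0 were lower, and Neurod1 was higher in Low Protein (0.27) and Poly I:C (0.27). The median of that list was 0.15, 0.13 and 0.12, on the other side of 0 from the 10 genes. These medians share the same saline pups. Neurod2 and Neurod6 of that list are also projection neuron markers, with saline means of 82.6 ± 18.1 and 90.1 ± 24.7 TPM (SD). The projection neuron sum was 127 TPM in Saline pup 2.1, against 206 to 256 TPM in the other saline pups. The part of that pup in the medians was not tested. No gene of these lists passed an adjusted p of 0.05 by limma.

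**Figure D5:**
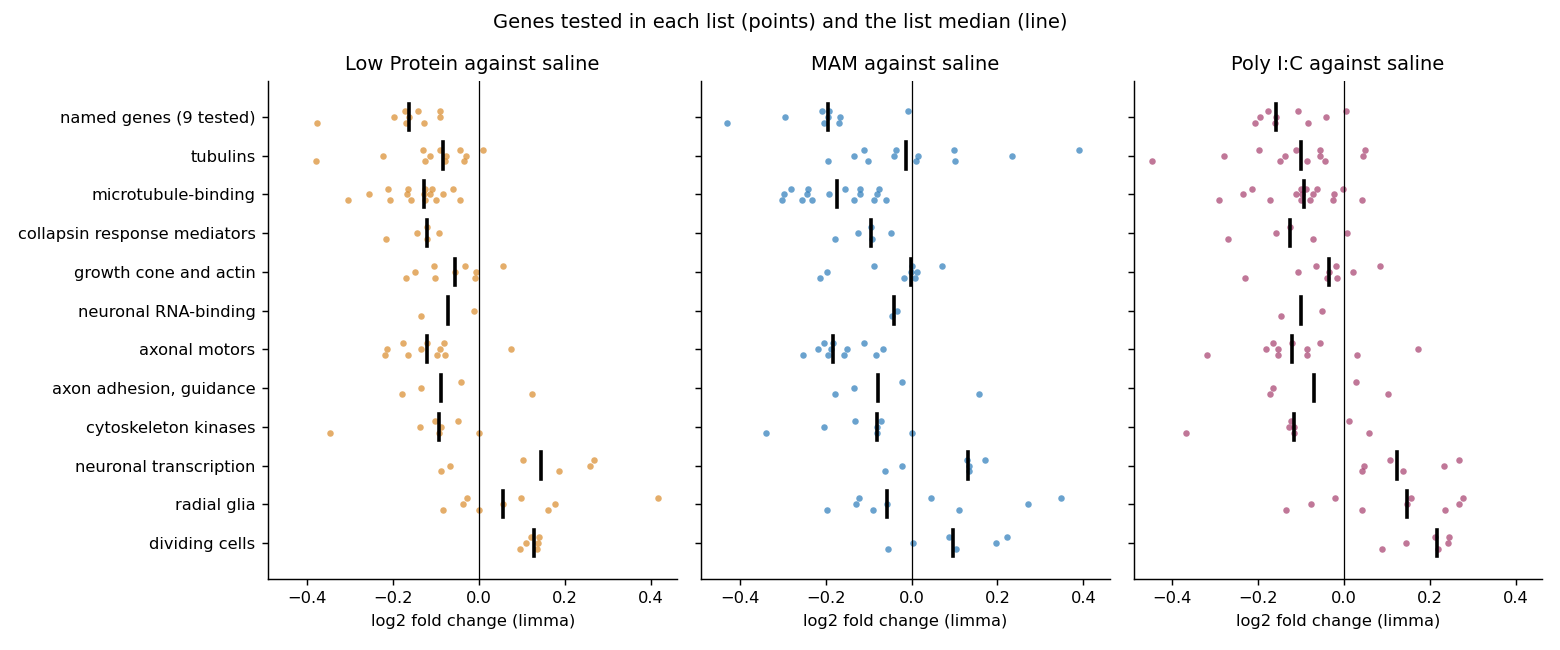
Log2 fold change against saline (x axis) of every tested gene (points) in the 9 tested genes of the set, the lists by role and the lists for radial glia and dividing cells (y axis), one panel per treated group, with the list median as a line. The lines of the set and of the microtubule-binding genes lie left of 0 in the 3 panels, and those of the neuronal transcription list and of dividing cells lie right of it.

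Over the 24 pups, with group means removed, the genes whose values followed the mean of the set most closely among 5077 others were Abr (Pearson r 0.92), Panx2 (0.91), Agap2 (0.91), Epb41l1 (0.91) and Cyfip2 (0.90). These are the highest of 5077 values and describe pups that share litters and a common scale.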

How the data were processed

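RNA of 24 pups was sequenced as stranded mRNA libraries, read in pairs. The authors trimmed reads at phred 30 with a minimum length of 25, aligned them to rn6 with STAR 2.4.1d, counted RefSeq transcripts by Partek's expectation-maximisation step and deposited TPM with an offset of 0.0001, which 20.9% of values equal. The table gives no counts, so absolute depth is unknown and no count model was used. Any gene lengths behind the TPM are not given in the sources used here, so levels of single genes were not compared with each other. Marker sums add the values of different genes.

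Log2 TPM was fitted with limma 3.58.1 (R 4.3.3) over all 24 pups with the group, or the 8 litters, as factor. Genes with a mean above 1 TPM in every group were tested, Benjamini-Hochberg adjustment ran over all of them, and counts used an unadjusted p under 0.05, which the study states for MAM. Its results sections add an absolute log fold change of at least 0.6 for Low Protein and Poly I:C, which was run as an alternative. Litters were read from the digit before the point in each sample's number. Exact permutation tests were two-sided. The fit was tested on simulated data. The outcome is not given here, and no p-value above rests on it. The 10 genes and the lists of related genes and markers were chosen with earlier results of these data known. All 10 genes were named, and from each list at most the 3 genes with the lowest F test p, or whole sequence families. Alternatives changed the filter, the pseudocount, the scaling, the variance model, the pups fitted and the litter, and left out each pup and litter. All per-sample columns were used.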

Additional observations from a re-analysis of the deposited data

Results flagged for a closer look

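Among the 40 groups of 6 pups (10 genes in 4 treatment groups), the lowest or highest pup stood apart from the others by Dixon's criterion in 2, which is the number that chance gives at 1 in 20. Tubb3 was 219 TPM in Poly I:C pup 2.3, against 239 TPM in the next pup and 252 TPM in the highest. Nefl was 2.43 TPM in Low Protein pup 1.1, against 3.88 TPM in the next pup and 4.95 TPM in the highest, and without that pup the log2 fold change of Nefl in Low Protein was -0.23 instead of -0.38.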

How the results depend on the processing

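Across 42 alternative settings no fold change of a called gene changed sign, the median of the 10 genes stayed below 0 in each comparison, and an adjusted limma p under 0.05 against saline appeared only without Poly I:C litter 1. That setting leaves a single Poly I:C litter, in which treatment and litter cannot be told apart. Uncalled values changed sign for Tubb3 in MAM in 9 settings, Rbfox3 in MAM in 5, Dcx in Low Protein in 1 and, in Poly I:C, Dcx in 10, Ina in 3, Nefl in 1 (-0.18 to 0.13) and Nefm in 1. Counts of genes past the unadjusted threshold were less stable. In Low Protein the count of 0 became 2 with log2(TPM + 1), 1 with the median of ratios or the upper quartile as scaling and 2 with only the pups compared. In MAM the count of 3 became 1 without the filter, with either scaling or with litter means, and 7 with only the pups compared. The MAM calls of Nefl, Nefm and Ina were lost in 15, 7 and 14 settings. In Poly I:C the count of 1 became 3 with the upper quartile and 0 with only the pups compared, with litter means or, in a setting chosen after seeing the data, with log2 fold changes required to reach 0.6 in size. The count over the 4 groups became 2 with the upper quartile, and that among treated groups 1 with either scaling, for Tubb3.

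Leaving out single pups or litters gave 0 to 7 genes in MAM, 0 to 6 in Poly I:C, 0 to 4 in Low Protein, 0 to 4 over the 4 groups, 0 to 2 among treated groups and 3 to 7 of the litter contrasts, and the Poly I:C median ran from -0.27 to -0.012. The MAM count was 0 without MAM pup 1.3 or either MAM litter, 1 without MAM pup 1.2, 2.2 or 2.3, Saline pup 1.3 or 2.2 or either saline litter, and 5 to 7 without MAM pup 1.1, Saline pup 2.3, Poly I:C pup 1.3 or 2.2 or either Poly I:C litter. The litter count was 3 without Poly I:C pup 2.2, and without pup 2.1 the lowest adjusted p was 0.0131.

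Pups of different groups share numbers in their names, and their deviations correlated at -0.42 to 0.56. Pups numbered 2.2 correlated in all 6 pairs (0.20 to 0.34), but every other number had a pair below 0, so the numbers were not taken to pair pups. With the number as a replicate block, 6 genes passed in MAM, 4 in Poly I:C, 2 in Low Protein and 2 over the 4 groups. The block could not be fitted to the litter contrasts, since the number holds the litter.

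The scalings moved the MAM median of all genes from -0.046 to 0.019 or 0.0080, and that of the 10 genes from -0.19 to -0.13 or -0.14. The deposited values hold no reads, so counting error is not in the model. Rbfox3, Nefh and Rbfox1 lay below the limit of 1 TPM, and the number of reads behind their values is not known. The exact tests, the related genes and the markers were not rerun under these settings.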
